A study of Salmo salar with 16 samples.

Results

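The ovary was set against the liver in female Atlantic salmon (Salmo salar) by sequencing of messenger RNA. The comparison is between 8 of the 16 libraries of the series, the 4 labelled ovary and the 4 labelled liver, which were chosen by their tissue label alone. The other 8 came from mid-brain and pituitary gland, and they entered the scaling, the filter and the estimate of spread. The study's methods describe 4 sexually immature 3-year-old females of the SALTAS selective breeding program, and both groups are untreated fish with no allele or agent that differs between them. Because 4 animals gave all 4 tissues, ovary and liver libraries share fish, but the labels do not say which libraries came from the same fish. Each library is RNA of a whole organ sample, in which fewer cells of a type and less RNA per cell cannot be told apart.

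The ovary of a growing female holds oocytes wrapped in layers of follicle cells. An oocyte is arrested in meiosis while it stores messenger RNAs and proteins for the embryo, lays down an egg coat of zona pellucida (ZP) proteins and takes up yolk precursors through receptors of the low-density lipoprotein family. The liver secretes most plasma proteins, converts nutrients and foreign compounds, and in egg-laying females also makes the yolk precursor vitellogenin, and in teleost fish part of the egg coat, under estrogen.

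An ovary library held 25444509 to 30566429 counts on exons, and a liver library 20638203 to 23169283. The tissues differed in how these counts were spread over genes. The 10 most abundant genes held 1.14 to 1.30% of the counts of an ovary library, against 18.3 to 20.01% of a liver library. The 100 most abundant genes held 5.66 to 6.16% in the ovary and 48.6 to 50.2% in the liver. It took 3123 to 3240 genes to reach 50% of the counts in the ovary, but only 99 to 112 genes in the liver. The number of genes with any count was 39834 to 40120 in the ovary and 35272 to 35434 in the liver. CPM is a count divided by the library's size in M, with the size multiplied by the TMM factor given below. The number of genes at 1 CPM or more overlapped, with 24325 to 24585 in the ovary and 24316 to 24694 in the liver. On this scale 1 CPM stands for more counts in an ovary library than in a liver library, so these numbers depend on the scaling. When a gene had to reach 1 CPM in 2 or more libraries, 4564 genes were expressed in the ovary and not in the liver, 4753 in the liver and not in the ovary, and 20312 in both.

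**Figure D1:**
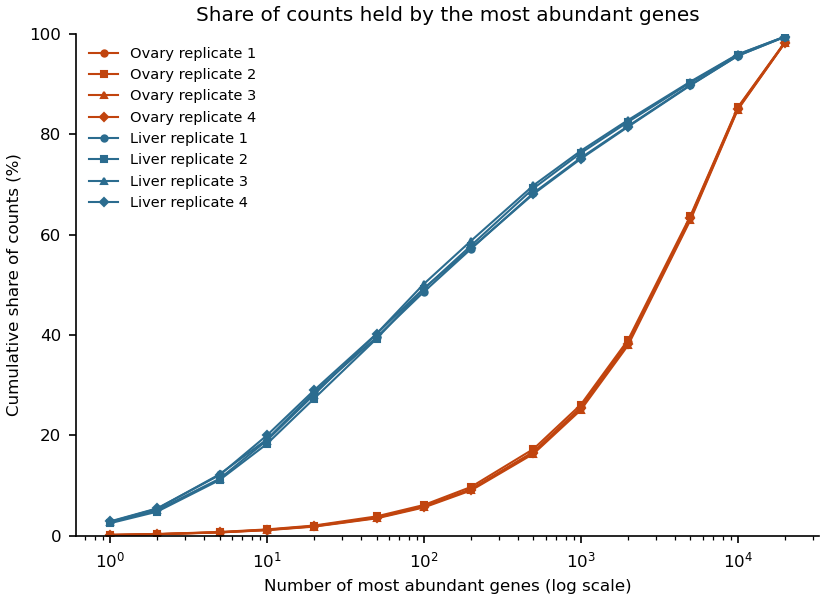
Cumulative share of counts in percent (y axis) held by the most abundant genes of each library, ranked within that library (x axis, log scale), with 1 line for each of the 4 ovary and 4 liver libraries. The 100 most abundant genes hold 5.66 to 6.16% of ovary counts and 48.6 to 50.2% of liver counts.

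This composition decides the scale on which the tissues are compared. A tissue whose counts go largely to a few genes shows all its other genes at a lower share of the total. The TMM factors of edgeR, which multiply the library totals so that most genes center on no change, were 1.42 to 1.48 in the ovary and 0.494 to 0.538 in the liver. All CPM values, above and below, use totals multiplied by these factors. Without them, on plain totals, the log2 difference of a gene between ovary and liver is larger by 1.48 at the median, so counts or medians with plain totals stand beside those of most gene lists. All log2 values are ovary minus liver, so that positive values mean higher in the ovary.

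Of the 37043 genes tested with edgeR's quasi-likelihood test, 15132 (40.8%) were called at a Benjamini-Hochberg adjusted p of at most 0.001 and a fold of at least 4. The ovary was higher for 8268 genes (22.3% of those tested) and the liver for 6864 genes (18.5%). All 8268 ovary calls also held on plain totals, but 3610 of the 6864 liver calls did. Plain totals raise the log2 differences, by 1.48 at the median, so an ovary call could hardly be lost there. Holding on plain totals is therefore a check of liver calls and not of ovary calls. On plain totals 15546 genes (42.0%) were higher in the ovary and 3610 (9.75%) in the liver, so the ovary's share of the calls was 54.6% with TMM factors and 81.2% with plain totals. Among all tested genes the median log2 difference was 0.38 with TMM factors and 1.82 with plain totals. These medians and the 2 percentages of called genes are the background against which the gene lists below are read.

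**Figure D2:**
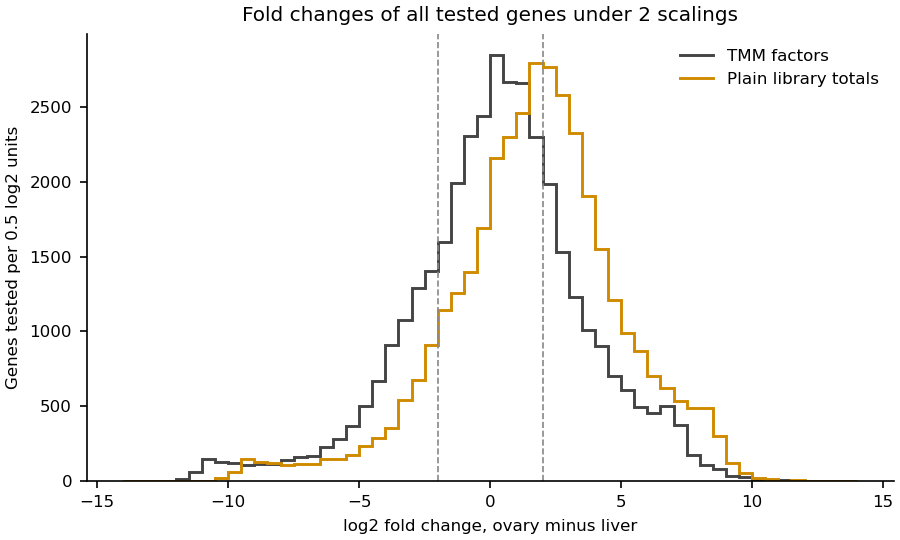
Number of tested genes (y axis, per bin of 0.5 log2 units) by log2 fold change of ovary minus liver (x axis), with TMM factors and with plain library totals, and dashed lines at the limits of the calls. The median gene sits at 0.38 with TMM factors and at 1.82 with plain totals.

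The 2 sides differed in the share of counts they held. Genes called higher in the ovary held 42.9 ± 0.472% of the counts of ovary libraries and 1.43 ± 0.0427% of those of liver libraries (SD, n = 4 each). The genes called higher in the liver held 6.12 ± 0.418% in the ovary and 81.6 ± 0.489% in the liver. At a log2 difference of 4 or more, 3870 genes were higher in the ovary and 3200 in the liver, but at 10 or more the numbers were 25 and 341. With plain totals they were 7519 and 1717 at 4 or more, and 42 and 20 at 10 or more. The excess of very large liver folds thus depends on the scaling. The libraries of the 2 tissues did not overlap for 8261 of the ovary calls and 6826 of the liver calls. A call already needs a large fold and a small adjusted p, so this separation largely follows from the calling and adds little to it. No liver count was found for 437 genes called higher in the ovary, and no ovary count for 84 genes called higher in the liver. On average 3 counts stand for 0.0734 CPM in an ovary library and 0.264 CPM in a liver library. A gene at the same low CPM thus lacks a count more easily in the liver, so these numbers are not on an equal footing. Against the other tissues of the series, 80.4% of the genes called higher in the ovary had their highest mean level of the 4 tissues in the ovary, and 71.6% of those called higher in the liver had it in the liver.

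At the median, the most abundant liver transcripts were present at a small share of their liver level in every other tissue. Among the 206 genes higher in the liver under both scalings, without overlap, and at 1000 CPM or more in the liver, the median level was 0.0900% of the liver level in the ovary, 0.0825% in the mid-brain and 0.0544% in the pituitary gland. The upper quartiles were 1.10, 2.67 and 1.39%, so single genes differed far more than the medians. The set was chosen for a lower level in the ovary, with no such choice for the mid-brain or pituitary gland. Among the 676 such genes at 100 to 1000 CPM, it was 0.863% in the ovary, 3.08% in the mid-brain and 1.80% in the pituitary gland. The source of these low levels, and their part in the folds given for liver genes, was not tested.

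Egg coat genes were found on both sides, with log2 differences of -11.04 to 9.48. Of 24 tested genes for ZP and eggshell proteins, 19 were higher in the ovary and 3 in the liver, with a median of 6.99 (8.45 with plain totals, where 20 and 3 were called). Despite these numbers the list took 0.575 ± 0.0415% of ovary counts and 1.20 ± 0.0833% of liver counts (SD, n = 4 each).

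The ZP3-like gene LOC106600453 (341 FPKM in the ovary, 2.35 FPKM in the liver; FPKM is CPM per kilobase of exon) and the ZP4-like gene LOC106568862 (336 FPKM in the ovary, 2.32 FPKM in the liver) were among the 8 most abundant ovary calls per exon length. The zona pellucida sperm-binding protein 4-like gene LOC106568862 (chromosome 14, 16654334 to 16657617, ICSASG_v2) had 476, 558, 459 and 507 CPM in the ovary, against 4.31, 3.27, 3.71 and 2.50 CPM in the liver. Its log2 difference was 7.18 ± 0.22 (SE, edgeR adjusted p = 4.3e-13). The 8 most abundant calls were taken from genes without overlap between the tissues, so their separation follows from that choice. The zona pellucida sperm-binding protein 3-like gene LOC106600453 had 350, 441, 334 and 379 CPM in the ovary and 3.12, 2.67, 2.54 and 2.0 CPM in the liver, a log2 difference of 7.18 ± 0.24. LOC106584578, also ZP3-like, had 44.0, 38.6, 19.1 and 35.6 CPM in the ovary. With 2 counts in all liver libraries together, its level in the ovary was 781 times that in the liver (95% counting interval 216 to 6450).

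The 3 egg coat genes higher in the liver stood among its abundant transcripts. LOC106573520, a zona pellucida sperm-binding protein 4-like gene on chromosome 16 (23294107 to 23298598), had 7.85, 8.04, 7.96 and 6.60 CPM in the ovary, against 18552, 17084, 14197 and 13443 CPM in the liver (log2 difference -11.02 ± 0.67, edgeR adjusted p = 3.4e-10). LOC100380781, zona pellucida sperm-binding protein 3, had 1.89, 3.61, 4.30 and 3.68 CPM in the ovary and 5524, 6092, 7593 and 7424 CPM in the liver. LOC100136930, annotated as eggshell protein, had 0.346, 0.403, 0.292 and 0.565 CPM in the ovary and 818, 745, 747 and 1100 CPM in the liver. The groups were far apart for all 3 genes, and their log2 differences lay between -11.04 and -10.95. Both LOC100380781 and LOC100136930 lie on chromosome 10, at 87307560 to 87313333 and at 88816246 to 88820094.

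Genes of the germ line were higher in the ovary. In the list of germ plasm and piRNA genes, which carry germ cell determinants and the small RNA defence against transposons, 15 of 23 tested genes were higher in the ovary and 1 in the liver, with a median of 6.25 (6.13 with the genes lacking a liver count set at their bound, and 15 and 0 calls with a median of 7.58 with plain totals). The zygote arrest 1-like gene zar1l, a binder of stored messenger RNA in oocytes, had 366, 430, 367 and 437 CPM in the ovary, against 3.67, 2.41, 2.63 and 2.59 CPM in the liver (log2 difference 7.15 ± 0.33, edgeR adjusted p = 1.5e-11). Its relative zar1 had 99.9, 114, 86.5 and 96.9 CPM in the ovary and 0.918, 0.603, 0.362 and 0.501 CPM in the liver; 991 of its exon bases overlap a gene on the opposite strand, so part of its counts could belong there. Every ovary library exceeded every liver library for both genes.

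Of the Argonaute proteins that bind piRNAs, piwil2 averaged 37.7 ± 3.0 CPM in the ovary and 0.294 ± 0.307 CPM in the liver, and piwil1 averaged 36.6 ± 2.70 CPM in the ovary and 1.65 ± 0.827 CPM in the liver (SD, n = 4 each). The embryonic polyadenylate-binding protein-like gene LOC106566651, whose product binds the tails of stored messenger RNAs, had 161, 158, 148 and 149 CPM in the ovary and 1.56, 0.948, 3.17 and 1.75 CPM in the liver. The germ cell RNA-binding gene dazl was lower in level, with 8.62 ± 0.540 CPM in the ovary and 0.109 ± 0.0836 CPM in the liver. The 1 gene of the list higher in the liver was the tudor domain-containing protein 7B-like gene LOC106577912, with 2.41 ± 0.623 CPM in the ovary and 14.2 ± 2.47 CPM in the liver, and it was not called with plain totals.

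Meiotic and mitotic genes went the same way. For the synaptonemal complex and meiotic recombination, 7 of 11 tested genes were higher in the ovary and 1 in the liver (median 5.56, or 4.14 with genes lacking a count at their bound, and 7 and 0 calls with plain totals). The synaptonemal complex protein 2-like gene sycp2l, part of the structure that holds paired chromosomes together, had 45.1, 45.1, 40.2 and 42.7 CPM in the ovary, against 0.184, 0.172, 0.0906 and 0 CPM in the liver. The gene higher in the liver was the testis-expressed sequence 11 protein-like gene LOC106611744, at 0.216 ± 0.0552 CPM in the ovary and 1.84 ± 0.563 CPM in the liver; this call was lost with plain totals.

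Of 33 tested genes for cyclins and mitotic kinases, 30 were higher in the ovary and 0 in the liver, with a median of 4.67 (4.48 with DESeq2 size factors). Plain totals also gave 30 and 0, but they could hardly lose an ovary call. None was higher in the liver at an unadjusted edgeR p under 0.05 or with DESeq2 either. The other 3 were not called. Cyclin B1, the partner of the kinase that drives entry into division and the resumption of oocyte meiosis, is encoded by ccnb1 (chromosome 11, 64281248 to 64284548). It had 442, 479, 418 and 431 CPM in the ovary, against 9.45, 6.46, 7.16 and 4.09 CPM in the liver (log2 difference 6.03 ± 0.25, edgeR adjusted p = 5.4e-12). The gene for cyclin A1, ccna1, had 281, 346, 320 and 288 CPM in the ovary and 2.94, 2.41, 2.17 and 0.834 CPM in the liver. A further cyclin B1 gene, LOC106566708, averaged 358 ± 16.8 CPM in the ovary and 5.86 ± 2.89 CPM in the liver.

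DNA replication genes were higher in the ovary for 22 of 38 tested members (median 2.84, or 2.67 with bounds) and for 32 with plain totals. The replication licensing gene LOC106560381, annotated as maternal mcm3, had 249, 276, 238 and 244 CPM in the ovary, against 10.6, 9.91, 11.3 and 8.18 CPM in the liver. The Cdt1-like gene LOC106587264, which loads that licensing complex, averaged 219 ± 14.5 CPM in the ovary and 4.07 ± 1.14 CPM in the liver, and the proliferating cell nuclear antigen-like gene LOC106580445 averaged 125 ± 11.9 CPM in the ovary and 9.54 ± 1.70 CPM in the liver. The 2 members called higher in the liver, LOC106608276 and LOC106608315, both named as MCM3, were at 0.0911 and 0.0852 CPM in the ovary and 1.31 and 1.38 CPM in the liver. Both rest on liver replicate 1, which had 3.76 CPM of LOC106608276 where the other liver libraries had 0.345 to 0.725, and 3.95 CPM of LOC106608315 where they had 0.334 to 0.634. Without that library the log2 differences were -2.37 and -2.55, with edgeR adjusted p of 0.00121 and 0.00542. Both calls were lost without liver replicate 1, without any of ovary replicates 1 to 3 and with plain totals.

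Growth factors of the oocyte and hormones of the follicle had calls on both sides, more of them in the ovary. Of 29 tested regulators, 14 were higher in the ovary and 5 in the liver (median 4.45, or 3.09 with bounds, and 16 and 3 calls with plain totals). These were 48.3 and 17.2% with TMM factors, against 22.3 and 18.5% of all genes, so the liver calls were near the background. Growth differentiation factor 9 and bone morphogenetic protein 15 are secreted by oocytes and act on follicle cells. The GDF9-like gene LOC106612229 had 137, 151, 138 and 143 CPM in the ovary, against 1.29, 1.47, 0.634 and 0.501 CPM in the liver (log2 difference 7.19 ± 0.33, edgeR adjusted p = 1.3e-11). The BMP15-like gene LOC106578107 had 175, 171, 153 and 164 CPM in the ovary and 1.93, 1.21, 1.63 and 1.08 CPM in the liver. Both had a narrow spread over the ovary libraries.

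Genes of the follicle cells were also found on the ovary side. Anti-Mullerian hormone, which restrains follicle growth in mammals, is encoded by amh, with 158, 295, 200 and 226 CPM in the ovary and 3.40, 3.02, 3.35 and 2.50 CPM in the liver; 429 of its exon bases overlap a gene on the opposite strand. The receptor of follicle stimulating hormone, fsh-r, had 6.42, 8.14, 8.28 and 7.54 CPM in the ovary and 0.184, 0.0862, 0.0906 and 0.167 CPM in the liver (log2 difference 5.81 ± 0.75, edgeR adjusted p = 3.1e-06). It was thus low in both tissues yet fully separated between them.

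The liver members of this list were led by inhibin subunits. The inhibin beta B chain-like gene LOC106566127 (chromosome 12, 82512970 to 82515207) had 0.115, 0.119, 0.292 and 0.221 CPM in the ovary, against 522, 388, 589 and 635 CPM in the liver (log2 difference -11.47 ± 0.39, edgeR adjusted p = 1.1e-12). A further inhibin beta B chain-like gene, LOC106582672, averaged 1.77 ± 0.761 CPM in the ovary and 361 ± 59.7 CPM in the liver. The others were the inhibin beta A gene LOC106568683, the follistatin-A gene LOC106561792 and the membrane progestin receptor gene LOC106588616, at 1.41 to 21.1 CPM in the liver, and the last 2 lost their call with plain totals. The call of LOC106561792 was also lost without any of the ovary libraries and without liver replicate 1 or 4. For LOC106568683 liver replicate 1 stood at 13.2 CPM and the other livers at 3.59 to 4.98 CPM. In all, the 6 tested genes named inhibin beta B were called higher in the ovary for 2 and in the liver for 2.

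Steroid synthesis genes were higher in the ovary for 11 of 20 tested members and in the liver for 2 (median 2.54, and 14 and 2 calls with a median of 4.02 with plain totals). The gene for an estradiol 17-beta-dehydrogenase 1-like enzyme, LOC106607392, which makes estradiol from estrone, had 32.0, 40.3, 40.2 and 46.6 CPM in the ovary, against 0.551, 1.64, 1.27 and 0.668 CPM in the liver. The aromatase-like gene LOC106587170, whose product forms estrogens from androgens, had 12.1, 7.57, 5.89 and 8.17 CPM in the ovary and 0.0918, 0.0862, 0.181 and 0.167 CPM in the liver (log2 difference 5.96 ± 0.51, edgeR adjusted p = 2.2e-08). The gene of the steroidogenic acute regulatory protein, LOC106577426, which brings cholesterol into mitochondria, was at 1.89 to 4.67 CPM in the ovary; with 3 counts in all liver libraries, its ovary level was 48.4 times that in the liver (95% counting interval 16.6 to 235). The 2 members higher in the liver were carbonyl reductase 1 (LOC106563565) and the adrenodoxin-like gene LOC106582038, an electron carrier for mitochondrial P450 enzymes, at 0.194 ± 0.0822 CPM in the ovary and 22.5 ± 6.87 CPM in the liver.

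Receptors of lipoproteins and yolk precursors lay on both sides. Of 45 tested genes, 17 were higher in the ovary and 12 in the liver, with a median of 0.45 close to the 0.38 of all genes, and 19 and 9 were called with plain totals. The 2 most abundant members were receptors of the very low-density lipoprotein (VLDL) type, the class that takes up vitellogenin in oocytes of egg-laying vertebrates. LOC106580049 (chromosome 20, 16316036 to 16324928) had 957, 984, 852 and 845 CPM in the ovary, against 9.73, 7.41, 7.88 and 6.09 CPM in the liver (log2 difference 6.87 ± 0.23, edgeR adjusted p = 1e-12). LOC100136429 had 643, 677, 579 and 585 CPM in the ovary and 7.44, 5.52, 5.89 and 4.09 CPM in the liver. It was also present in the mid-brain at 78.9 CPM and the pituitary gland at 38.4 CPM, where LOC106580049 was at 1.69 and 2.65 CPM. On the liver side, the low-density lipoprotein receptor-like gene LOC106601326 had 0.277, 0.356, 0.504 and 0.589 CPM in the ovary and 87.8, 138, 191 and 150 CPM in the liver. The receptor-related protein 8-like gene LOC106560509 had no ovary count and 0.634 to 1.01 CPM in the liver, at least 11.1-fold higher in the liver with a floor of 3 counts per ovary library.

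**Figure D3:**
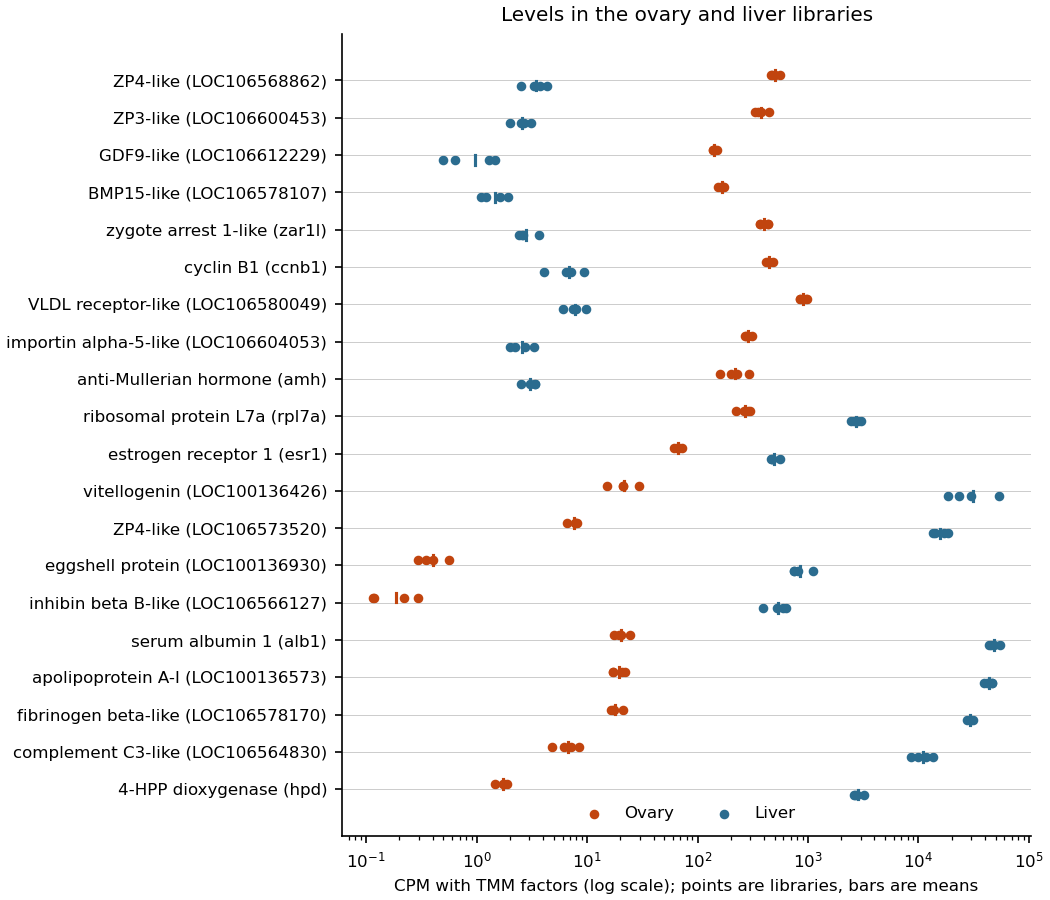
CPM with TMM factors (x axis, log scale) of 20 genes in the 4 ovary and 4 liver libraries; points are libraries, short bars are means, and libraries at 0 are not drawn. The ZP4-like gene LOC106568862 lies at 459 to 558 CPM in the ovary and 2.50 to 4.31 CPM in the liver, and the ZP4-like gene LOC106573520 lies at 6.60 to 8.04 CPM in the ovary and 13443 to 18552 CPM in the liver.

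Beyond the lists, the rule that takes the most abundant ovary genes per exon length brought up several genes whose names tell little. LOC106570242, annotated by similarity to a serine-rich protein, was at 1401, 1405, 1269 and 1261 CPM in the ovary and 12.6, 9.74, 11.7 and 8.01 CPM in the liver, and had the highest level per length of the ovary calls, 780 FPKM in the ovary and 6.14 FPKM in the liver. LOC106608796, uncharacterized, had 945, 987, 692 and 870 CPM in the ovary and 7.62, 6.64, 3.8 and 5.51 CPM in the liver. LOC106570186, a zinc metalloproteinase of the astacin type by name, varied more between ovary libraries, with 338, 225, 229 and 323 CPM, against 4.22, 1.38, 3.26 and 2.84 CPM in the liver. Their log2 differences were 6.58 to 7.21, and the rule took only genes whose libraries did not overlap between the tissues. The largest fitted ovary folds among named products of at least 10 CPM were those of LOC106602292, a sphingomyelin synthase by name (phosphatidylcholine:ceramide cholinephosphotransferase 2-like), and the vertnin-like gene LOC106571080. They had 11.7 to 12.7 and 11.3 to 13.1 CPM in the ovary and no liver count, at least 46.5-fold and 45.4-fold higher in the ovary with a floor of 3 counts per liver library.

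Nuclear pore and import genes were higher in the ovary for 38 of 89 tested members and in the liver for 3 (median 1.93, and 75 and 1 calls with a median of 3.40 with plain totals). Importins alpha carry proteins into the nucleus, and the importin subunit alpha-5-like gene LOC106604053 had 287, 313, 270 and 277 CPM in the ovary, against 3.30, 2.24, 2.72 and 2.0 CPM in the liver (log2 difference 6.80 ± 0.26, edgeR adjusted p = 2.8e-12). The importin subunit alpha-1-like gene LOC106607066 averaged 259 ± 17.9 CPM in the ovary and 4.88 ± 1.61 CPM in the liver. Nucleolus and ribosome biogenesis genes were called higher in the ovary for 20 of 93 tested members (21.5%, against 22.3% of all genes) and in the liver for 7 (7.53%, against 18.5%), with a median of 1.33. With plain totals the numbers were 65 and 1, where 42.0% and 9.75% of all genes were called. Core and linker histones gave 7 ovary and 5 liver calls of 28 (17.9% in the liver, against 18.5% of all genes), and 12 and 0 with plain totals. Histone H2A.Z (LOC106577590), a variant of active and embryonic chromatin, had 82.9, 92.5, 81.7 and 90.1 CPM in the ovary and 9.55, 10, 8.24 and 8.85 CPM in the liver. The linker histone H1.0-B-like gene LOC106579217 averaged 12.7 ± 3.75 CPM in the ovary and 121 ± 23.4 CPM in the liver.

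On the liver side the secreted proteins of plasma came first. Of 57 tested genes for plasma carriers and protease inhibitors, 2 were higher in the ovary and 48 in the liver, with a median of -9.98 (4 and 46 calls and -8.49 with plain totals). They took 0.0866% of the counts in the ovary and 15.1 ± 0.947% in the liver. Serum albumin 1, the main carrier protein of plasma, is encoded by alb1 (chromosome 1, 101401500 to 101416191). It had 17.6, 19.5, 24.2 and 20.3 CPM in the ovary, against 45060, 43458, 54903 and 48480 CPM in the liver (log2 difference -11.20 ± 0.71, edgeR adjusted p = 5.3e-10). The iron carrier transferrin, trf, had 32.1, 36.4, 37.2 and 38.5 CPM in the ovary and 27167, 40264, 42737 and 34211 CPM in the liver. The mid-brain and the pituitary gland had 18.9 and 9.69 CPM of alb1, levels like that of the ovary. The 2 members higher in the ovary, LOC106564321 and LOC106592096, are alpha-2-macroglobulin-like, and the call of LOC106592096 was lost when any library but ovary replicate 2 was left out.

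Apolipoproteins, which coat and direct the lipid particles of plasma, were higher in the ovary for 1 of 29 tested genes and in the liver for 23, with a median of -9.75 (3 and 21 calls with plain totals). Apolipoprotein A-I is the main protein of high-density lipoprotein, and its gene LOC100136573 had 17.3, 20.8, 22.3 and 17.3 CPM in the ovary, against 42089, 46056, 46716 and 39391 CPM in the liver (log2 difference -11.13 ± 0.65, edgeR adjusted p = 2.2e-10). A further gene of this protein, apoa1, averaged 10.3 ± 1.86 CPM in the ovary and 16022 ± 3086 CPM in the liver. The apolipoprotein C-I-like gene LOC106577511 averaged 32.6 ± 1.18 CPM in the ovary and 41846 ± 5681 CPM in the liver, beside 367 CPM in the mid-brain and 1200 CPM in the pituitary gland. Per exon length it was the highest of the liver calls, at 51.2 FPKM in the ovary and 65692 FPKM in the liver. Among genes with a product name and at least 10 CPM, the largest fitted liver fold was that of apom, which carries small lipids on plasma particles, with 0.0435 ± 0.0262 CPM in the ovary (7 counts over the 4 libraries) and 188 ± 25.9 CPM in the liver (log2 difference -11.97 ± 0.46). The 1 ovary call, the apolipoprotein D-like gene LOC106598344, was at 0.403 CPM in the ovary with no liver count, and it was lost when any library was left out.

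Complement and clotting factors were liver genes almost throughout. In the complement list 1 of 45 tested genes was higher in the ovary and 38 in the liver (median -10.10, and 1 and 36 calls with plain totals), and in the coagulation list the numbers were 1 and 27 of 31 (median -9.72, and 4 and 26 calls with plain totals). Complement C3, on which the pathways of complement meet, is encoded by the C3-like gene LOC106564830, with 4.78, 8.52, 7.14 and 6.21 CPM in the ovary, against 8615, 13655, 11606 and 9826 CPM in the liver. Of the chains of fibrinogen, which forms the clot, the fibrinogen beta chain-like gene LOC106578170 had 17.1, 16.6, 17.4 and 21.1 CPM in the ovary and 31043, 29465, 29754 and 27567 CPM in the liver, and the gamma chain-like gene LOC106602564 averaged 11.4 ± 2.07 CPM in the ovary and 23024 ± 1825 CPM in the liver.

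Each of these lists held 1 gene that went against it. The complement factor H-like gene LOC106572353 (chromosome 15, 79083236 to 79088537) had 56.1, 79.8, 56.2 and 78.2 CPM in the ovary, against 1.29, 0.689, 0.815 and 0.751 CPM in the liver (log2 difference 6.25 ± 0.37, edgeR adjusted p = 2.7e-10), while 4 of the 5 tested genes of that name were higher in the liver. The vitamin K-dependent protein S-like gene LOC106612582 had 247, 302, 238 and 204 CPM in the ovary and 3.03, 3.19, 2.90 and 2.0 CPM in the liver (log2 difference 6.48 ± 0.24). Its mid-brain and pituitary levels were 0.546 and 0.810 CPM, so that its level was highest in the ovary among the 4 tissues. Both were also called with plain totals, which shift values toward the ovary.

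The median of the acute phase and iron list changed sign with the scaling. Of 35 tested genes, 5 were higher in the ovary and 12 in the liver with a median of -0.86, against 14 and 9 with a median of 0.62 with plain totals. Both medians were below those of all genes, 0.38 with TMM factors and 1.82 with plain totals. Haptoglobin, which binds free hemoglobin, was a liver transcript: LOC106587252 had 3.32, 3.49, 3.61 and 2.75 CPM in the ovary, against 4771, 6194, 6445 and 4614 CPM in the liver. All 5 ovary calls were ferritin genes, which code for the iron store of cells. The ferritin middle subunit-like gene LOC106600954 had 71.8, 114, 72.5 and 77.1 CPM in the ovary and 0.459, 0.776, 0.453 and 0.668 CPM in the liver (log2 difference 7.14 ± 0.91, edgeR adjusted p = 2.4e-06), with ovary replicate 2 above the others. The ferritin heavy subunit gene LOC100136564 went the other way with TMM factors, at 374 ± 21.8 CPM in the ovary and 3929 ± 429 CPM in the liver, and was not called with plain totals (log2 difference -1.91).

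Enzymes that convert foreign and endogenous small molecules were higher in the liver. Of 88 tested cytochrome P450 and conjugation genes, 2 were higher in the ovary and 63 in the liver (median -5.31, and 7 and 54 calls with plain totals). The cytochrome P450 2D15-like gene LOC106587398 had 0.577, 0.712, 1.06 and 0.761 CPM in the ovary, against 1475, 1483, 1736 and 1454 CPM in the liver (log2 difference -10.95 ± 0.65, edgeR adjusted p = 2.7e-10). The cytochrome P450 2K1-like gene LOC106608020 averaged 0.783 ± 0.193 CPM in the ovary and 1331 ± 132 CPM in the liver, and the glutathione S-transferase theta-1-like gene LOC106585460, a conjugating enzyme, averaged 1.78 ± 0.300 CPM in the ovary and 1100 ± 102 CPM in the liver. The 2 ovary calls were sulfotransferase 4A1 (LOC106576158) and a cytochrome P450 2K1-like gene, LOC106601851, which had 25.7 CPM in ovary replicate 3 and 4.27 to 6.24 CPM in the other ovaries. LOC106576158, at a log2 difference of 2.08, was not called with DESeq2 size factors (1.89), with the DESeq2 Wald test (1.89), in the fit on the 8 libraries alone (1.80) or in the test against a fold of 4.

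Of 84 tested genes for the breakdown of amino acids, 12 were higher in the ovary and 45 in the liver (median -2.44, and 24 and 37 calls with plain totals). The gene of 4-hydroxyphenylpyruvate dioxygenase, hpd, an enzyme of tyrosine breakdown, had 1.78, 1.47, 1.88 and 1.74 CPM in the ovary, against 2619, 2788, 3187 and 2671 CPM in the liver. The gene of tryptophan 2,3-dioxygenase, tdo2, varied more between livers, with 0.277, 0.166, 0.717 and 0.147 CPM in the ovary and 677, 735, 1439 and 929 CPM in the liver (log2 difference -11.50 ± 0.76, edgeR adjusted p = 9.6e-10). The betaine--homocysteine S-methyltransferase 1-like gene LOC106568115 spread widely, at 47.3 to 68.2 CPM in the ovary and 1104, 4072, 1996 and 1239 CPM in the liver. In the other direction, the alanine aminotransferase 2-like gene LOC106590406 had 84.2, 82.6, 81.6 and 80.7 CPM in the ovary and 0.551, 1.47, 0.362 and 0.834 CPM in the liver.

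Central metabolism had calls on both sides. Glucose metabolism gave 24 ovary and 31 liver calls of 111 tested genes, with a median of -0.06 that was 1.18 with plain totals, where 40 and 21 were called. With TMM factors these were 21.6 and 27.9% of the list, against 22.3 and 18.5% of all genes, so its ovary calls were near the background. Fatty acid and lipid metabolism gave 18 and 34 of 103 (29 and 26 with plain totals), with medians of -1.20 and 0.28, and the bile acid and peroxisome list 3 and 14 of 45 (16 and 9 with plain totals), with medians of -0.65 and 0.83. The calls with TMM factors were 17.5 and 33.0% of the former list and 6.67 and 31.1% of the latter. For none of these lists did the sign of the median hold under both scalings. Each median was below that of all genes, 0.38 with TMM factors and 1.82 with plain totals. Single members were nevertheless far apart. The glucose transporter gene LOC106574710 had 2 counts in all ovary libraries and 42.2, 61.4, 72.7 and 56.8 CPM in the liver, where its level was 4778 times that of the ovary (95% counting interval 1323 to 39451). The liver basic fatty acid-binding protein gene LOC106582922, which carries fatty acids and bile acids in liver cells, averaged 3.30 ± 0.602 CPM in the ovary and 5544 ± 1277 CPM in the liver. The elongation of very long chain fatty acids protein 1-like gene LOC106569200 was an ovary gene, with 54.5, 49.1, 52.2 and 58.4 CPM in the ovary and 0.551, 0.172, 0.453 and 0.334 CPM in the liver.

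From the bile acid and peroxisome list, 2 genes of bile acids are given with their values. The cholesterol 7-alpha-monooxygenase-like gene LOC106599162, the rate-limiting enzyme of bile acid synthesis, had 0.323, 0.878, 0.717 and 0.712 CPM in the ovary, against 168, 871, 811 and 586 CPM in the liver, where replicate 1 was lowest (log2 difference -9.85 ± 0.73, edgeR adjusted p = 3.7e-09). The bile salt export pump-like gene LOC106575306 averaged 0.641 ± 0.153 CPM in the ovary and 970 ± 112 CPM in the liver.

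Of 68 tested hepatic transcription factors and nuclear receptors, 3 were higher in the ovary and 41 in the liver (median -4.11, and 6 and 37 calls with plain totals). The hepatocyte nuclear factor 4-alpha-like gene LOC106572609, a main regulator of hepatocyte genes, had 0.0231, 0.0712, 0.0265 and 0.0245 CPM in the ovary (6 counts over the 4 libraries), against 38.8, 81.6, 50.7 and 59.4 CPM in the liver. The bile acid receptor-like gene LOC106561422 averaged 0.127 ± 0.0385 CPM in the ovary and 196 ± 23.2 CPM in the liver, and the gene of its target and partner in bile acid feedback, the nuclear receptor subfamily 0 group B member 2-like LOC106570251, averaged 0.169 ± 0.0731 CPM in the ovary and 175 ± 22.9 CPM in the liver. LOC106613765, a cyclic AMP-responsive element-binding protein 3-like gene, varied little between livers, with 0.162, 0.308, 0.265 and 0.123 CPM in the ovary and 526, 569, 555 and 511 CPM in the liver (log2 difference -11.27 ± 0.75, edgeR adjusted p = 1e-09).

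The yolk precursor was a liver transcript whose level varied between livers. In the list of vitellogenin and estrogen receptor genes 0 of 6 tested members were higher in the ovary, also at an unadjusted edgeR p under 0.05 and with DESeq2, and 5 in the liver (median -4.19, with 3 calls left on plain totals). The vitellogenin gene LOC100136426 (chromosome 23, 3409007 to 3419329) had 15, 21.3, 21.2 and 29.4 CPM in the ovary, against 18418, 23299, 30163 and 53524 CPM in the liver (log2 difference -10.49 ± 0.75, edgeR adjusted p = 2.3e-09). Liver replicate 4 was highest for it and also for the vitellogenin-like gene LOC106613448, which had 0.0692, 0.0475, 0.133 and 0.319 CPM in the ovary and 111, 212, 267 and 1158 CPM in the liver. Ovary replicate 4 was likewise the highest ovary library for both genes. Hemoglobin transcripts, at 1.32 to 2.33 CPM in the ovary and 112, 135, 218 and 371 CPM in the liver for LOC106607372, were highest in liver replicate 4 too; their part in the vitellogenin level was not tested.

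The receptors through which estrogen acts were present in both tissues. The estrogen receptor 1 gene esr1 had 61.9, 73.0, 68.2 and 65.9 CPM in the ovary and 558, 470, 473 and 461 CPM in the liver (log2 difference -2.87 ± 0.43, edgeR adjusted p = 1.4e-05), a call lost with plain totals at -1.39. The estrogen receptor beta 2 gene LOC100846972 had 53.3, 51.9, 52.4 and 46.5 CPM in the ovary and 942, 1021, 995 and 912 CPM in the liver, and its call held under both scalings. Neither receptor had its highest liver level in replicate 4, the library with the most vitellogenin, and the part of the receptors in the vitellogenin level was not tested.

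In the insulin-like growth factor (IGF) list 1 of 30 tested genes was higher in the ovary and 12 in the liver, with a median of -1.09, against 5 and 10 with a median of 0.39 with plain totals. The gene for the acid labile subunit that holds IGF in plasma, LOC106607361, averaged 0.178 ± 0.0634 CPM in the ovary and 521 ± 69.3 CPM in the liver. The 1 ovary call was the receptor gene igf1r, with 2.72, 3.54, 3.72 and 4.25 CPM in the ovary and 0.734, 0.603, 0.272 and 0.584 CPM in the liver (log2 difference 2.69 ± 0.28, edgeR adjusted p = 2.5e-07).

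**Figure D4:**
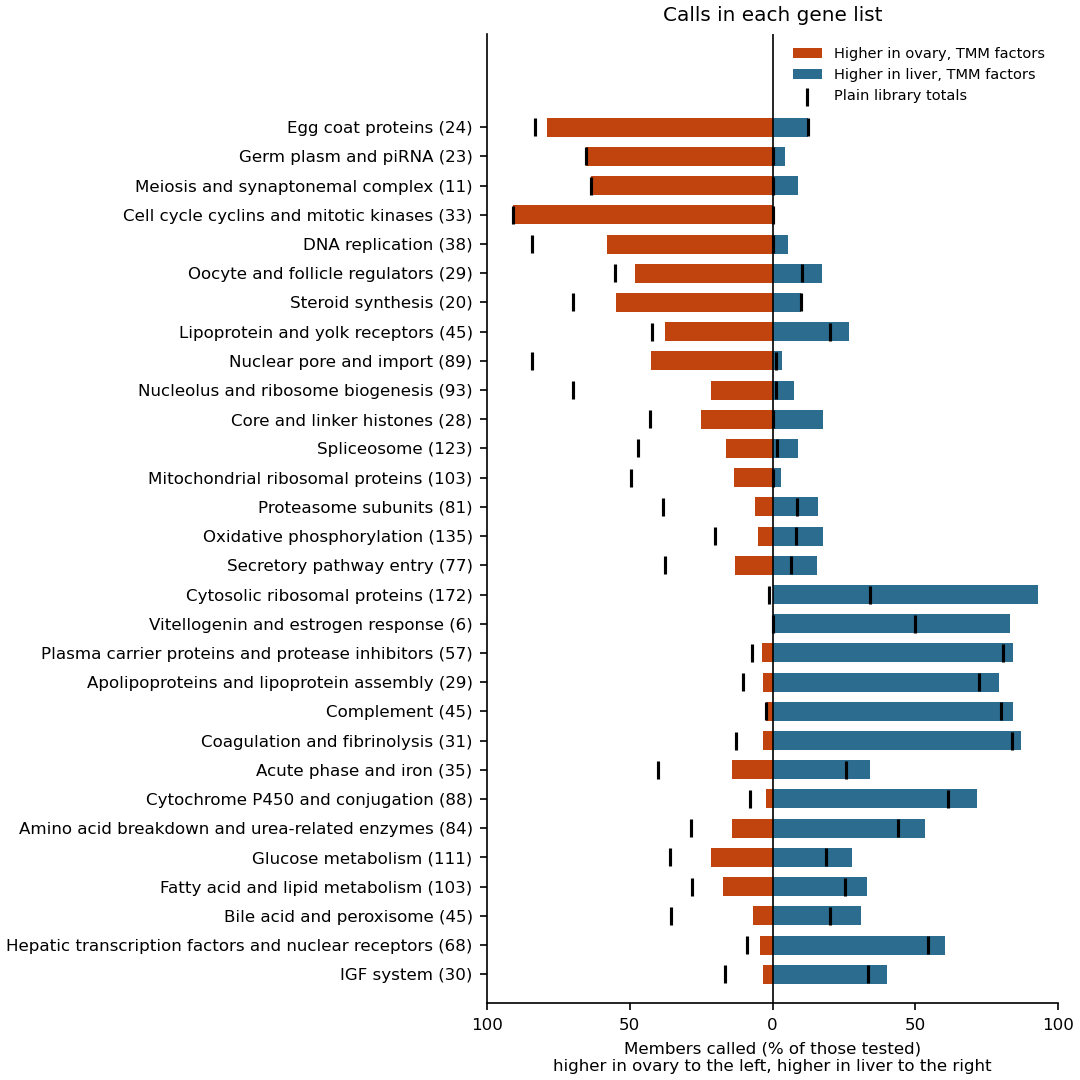
Percent of the tested members of each gene list (number tested in parentheses) that were called higher in the ovary (bars to the left) or in the liver (bars to the right) with TMM factors, with black ticks for the same percentages with plain library totals. Cyclins and mitotic kinases reach 30 of 33 in the ovary under both scalings, while cytosolic ribosomal proteins have 160 of 172 liver calls with TMM factors and 59 with plain totals.

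Calls for genes of the machinery that every cell uses moved with the scaling, as did those of all genes. Cytosolic ribosomal proteins were higher in the ovary for 0 of 172 tested genes and in the liver for 160 (93.0%) with TMM factors, at a median of -3.32. With plain totals 2 and 59 were called, at a median of -1.84. Of all genes, 18.5% were called higher in the liver with TMM factors and 9.75% with plain totals. The list's median was below that of all genes (0.38 and 1.82) under both scalings. With TMM factors 2 were higher in the ovary at an unadjusted edgeR p under 0.05, and 0 were called there with DESeq2. They took 1.69 ± 0.182% of ovary counts and 5.97 ± 0.416% of liver counts. The ribosomal protein L7a gene rpl7a had 225, 300, 264 and 289 CPM in the ovary, against 2618, 3050, 2838 and 2430 CPM in the liver (log2 difference -3.34 ± 0.22, edgeR adjusted p = 8.4e-10), and -1.86 with plain totals, where it was not called. The ribosomal protein L27a gene rpl27a was called under both, at -3.53 and -2.05. Mitochondrial ribosomal proteins had 14 ovary and 3 liver calls of 103 and a median of 0.60, and 51 and 0 calls with plain totals. With TMM factors these were 13.6 and 2.91%, below the 22.3 and 18.5% of all genes on both sides.

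Other shared machinery had fewer calls than all genes on at least 1 side. Spliceosome genes gave 20 ovary and 11 liver calls (16.3 and 8.94% of the tested members, median 0.45), against 58 and 2 with plain totals. Proteasome subunits gave 5 and 13 of 81 (6.17 and 16.0%, median 0.25), against 31 and 7 with plain totals. Oxidative phosphorylation gave 7 and 24 of 135 (5.19 and 17.8%, median -0.76), against 27 and 11 with a median of 0.72 with plain totals, and genes for entry into the secretory pathway gave 10 and 12 of 77 (15.6% in the liver, median -0.15), against 29 and 5 with a median of 1.33. Within such lists single genes still marked a tissue. The cytochrome c oxidase subunit 5B-like gene LOC106576835 had 1.15, 2.09, 1.62 and 1.74 CPM in the ovary, against 305, 274, 238 and 255 CPM in the liver, whereas the NADH dehydrogenase 1 alpha subcomplex subunit 4-like 2 gene LOC106571957 had 39.5, 39.3, 36.4 and 36.2 CPM in the ovary and 0.367, 0.603, 0.181 and 0.167 CPM in the liver. Of the secretory pathway, the translocon-associated protein gene ssra averaged 44.4 ± 6.63 CPM in the ovary and 1405 ± 282 CPM in the liver, while the 78 kDa glucose-regulated protein-like gene LOC106567149, a chaperone of the endoplasmic reticulum, averaged 286 ± 17.9 CPM in the ovary and 7.88 ± 1.68 CPM in the liver.

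**Figure D5:**
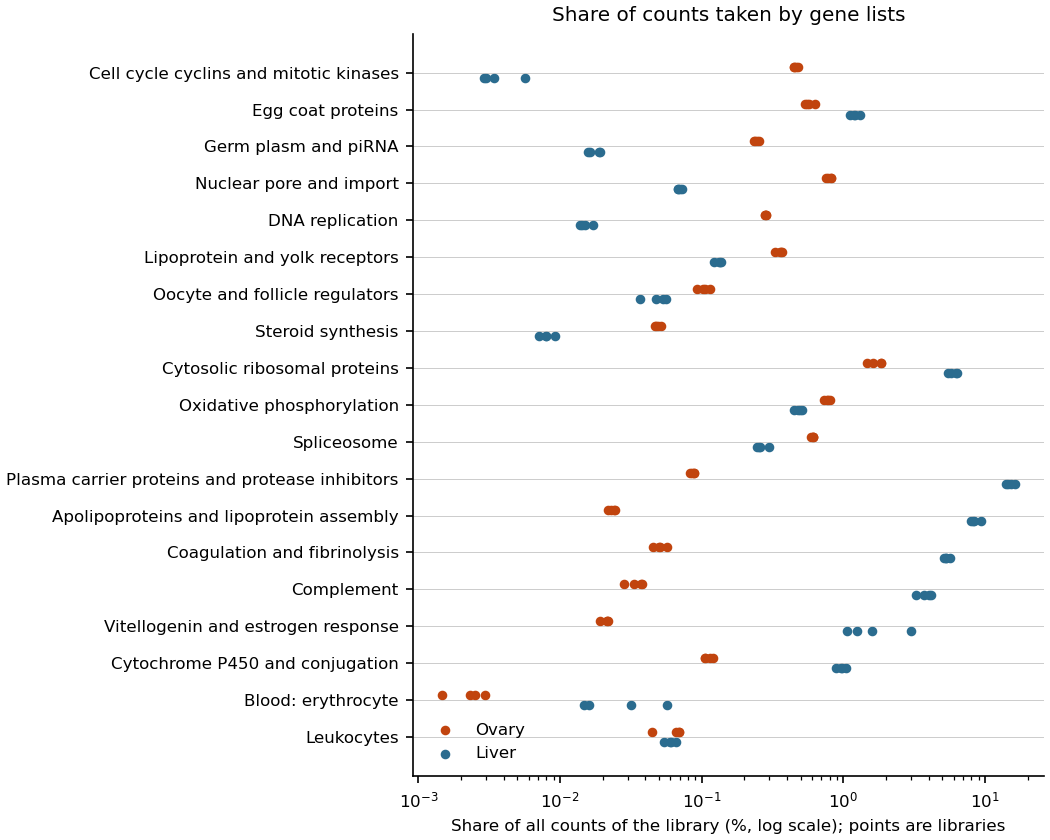
Share of all counts of a library in percent (x axis, log scale) taken by the genes of 19 lists in the 4 ovary and 4 liver libraries, each point a library. Plasma carriers and protease inhibitors hold 0.0866% of ovary counts and 15.1% of liver counts on average, while egg coat proteins hold 0.575% of ovary counts and 1.20% of liver counts.

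Genes of 1 name could belong to different tissues. Salmon carry many duplicate genes, from a genome duplication in their ancestry as well as from tandem copies. Among 7888 product names with more than 1 tested gene, 461 had calls in both directions under both scalings. Of all tested genes, 22.3% were called higher in the ovary and 9.75% in the liver under both scalings. Groups of unrelated genes would thus also hold calls in both directions, and how often was not tested. The name zona pellucida sperm-binding protein 3 had 16 tested genes, 14 higher in the ovary and 1 in the liver, and zona pellucida sperm-binding protein 4 had 6, with 5 and 1. Alpha-2-macroglobulin, a protease inhibitor of plasma, had 11 tested genes, 2 higher in the ovary and 8 in the liver. LOC106564321 of that name had 3.83, 4.20, 4.17 and 3.22 CPM in the ovary and no liver count, at least 14.6-fold higher in the ovary with a floor of 3 counts per liver library, and LOC106612555 had 1 count in all ovary libraries and 6.61 to 15 CPM in the liver.

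The glycolytic enzyme glyceraldehyde-3-phosphate dehydrogenase, often used to normalize between samples, had 7 tested genes, with 3 calls for each tissue. The gene gapdh had 18.3, 14.6, 24.7 and 39.3 CPM in the ovary, against 3813, 4410, 5122 and 4202 CPM in the liver, while LOC106570164 had 7.76, 9.56, 10.8 and 9.18 CPM in the ovary and 2 liver counts. The STYK1-like kinase genes gave a further pair, with LOC106588437 at 26.2 ± 1.01 CPM in the ovary and 0.153 ± 0.113 CPM in the liver, and LOC106572549 at 0.0848 ± 0.0293 CPM in the ovary and 143 ± 12.8 CPM in the liver. Reads that fit near-identical copies equally well were not counted, so the level of close copies is uncertain. Exon bases also overlapped a gene on the opposite strand in LOC106564830 (63 bases), tdo2 (73), LOC100846972 (88) and LOC106608020 (167), and part of their counts could belong there.

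The tissue labels fitted most of their defining markers. Most genes for ZP proteins, and those for GDF9, BMP15, the FSH receptor and zygote arrest 1, were ovary genes. However, 3 genes of the egg coat list were liver genes, and its summed level was 3637 to 4481 CPM in the ovary and 21990 to 24929 CPM in the liver. Albumin, apolipoprotein A-I, fibrinogen and HNF4-alpha were liver genes. Markers of other cell types were measured beside them, and where no gene of such a list is called in a tissue below, DESeq2 called 0 as well. Erythrocyte genes were higher in the ovary for 0 of 21 tested members and in the liver for 16 (median -6.29, with 11 liver calls left on plain totals), with a summed level of 9.90 to 20.7 CPM in the ovary and 279 to 1066 CPM in the liver. Endothelial genes were higher in the ovary for 1 of 21 and in the liver for 9 (4 and 5 with plain totals). Their summed levels were 89.2 to 101 CPM in the ovary and 186 to 246 CPM in the liver. As a share they took 0.0126 to 0.0148% of ovary counts and 0.00949 to 0.0130% of liver counts, so the direction depends on the scaling. Leukocyte genes gave 2 ovary and 15 liver calls of 43, against 6 and 4 with plain totals. Their summed levels were 314 to 486 CPM in the ovary and 1080 to 1233 CPM in the liver. As a share they took 0.0446 to 0.0696% of ovary counts and 0.0541 to 0.0663% of liver counts. Fibroblast and smooth muscle genes gave 2 and 3 calls of 34 (6 and 1 with plain totals), exocrine pancreas genes 5 and 1 of 17 (6 and 1), neuronal genes 5 and 5 of 52 (12 and 3), and pituitary hormone genes 0 and 0 of 15 under both scalings. With TMM factors 22.3% of all genes were called higher in the ovary and 18.5% in the liver. Fibroblast and smooth muscle genes had 5.88 and 8.82%, exocrine pancreas genes 29.4 and 5.88%, and neuronal genes 9.62 and 9.62%. Erythrocyte genes had 0 and 76.2%, endothelial genes 4.76 and 42.9%, and leukocyte genes 4.65 and 34.9%. At an unadjusted edgeR p under 0.05, 0 erythrocyte genes were higher in the ovary, and 0 pituitary hormone genes were higher in the ovary and 2 in the liver. In the 8 libraries no count was found for 9 of 40 annotated erythrocyte genes, 11 of 37 endothelial genes and 14 of 79 leukocyte genes.

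Of these markers, the collagen alpha-1(I) chain-like gene LOC106589632 had 250, 317, 300 and 359 CPM in the ovary and 200, 265, 280 and 157 CPM in the liver, and it was not called (log2 difference 0.44 ± 0.81, edgeR adjusted p = 0.63). The pituitary hormone precursor pro-opiomelanocortin A1 (LOC100510783) had 211, 133, 178 and 171 CPM in the ovary and 284, 25.9, 127 and 205 CPM in the liver, beside 141 CPM in the mid-brain and 139645 CPM in the pituitary gland. The tissues overlapped for both genes. The part of blood, leukocytes or endothelium in the liver calls was not tested.

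The study named 10 ovary and 10 liver transcription factors and 10 top genes of each tissue from these same libraries, so they are no independent evidence of direction. All 20 ovary genes were higher in the ovary, with log2 differences of 5.47 to 10.47 for the transcription factors and 6.74 to 9.09 for the top genes. They were also called with plain totals, which could hardly lose an ovary call. The 10.47 is the fitted value of LOC106588731, which had no liver count and is an uncharacterized long non-coding RNA in the deposited annotation. At a floor of 3 counts per liver library it was at least 21.9-fold higher in the ovary. All 20 liver genes were higher in the liver, at -11.54 to -9.47 for the transcription factors and -11.67 to -10.97 for the top genes. Among the study's liver transcription factors, LOC106599177 carries the name complement factor H in the deposited annotation and counts in the complement list too.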

How the data were processed

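Messenger RNA of 4 tissues was sequenced with a stranded Illumina kit as 4 libraries per tissue. Per the methods, the authors used TopHat2 to place filtered reads on ICSASG_v2 and HTSeq to count, over exons, reads with a single position; the deposited values are raw counts for 81574 genes, of which 47497 had a count. The strand setting of the counting is not given in the sources used here, and 2419 tested genes overlap exons on the opposite strand. The deposited centered log2 table was not used, and 12 annotated mitochondrial genes are not analysed here.

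Counts of all 16 libraries entered 1 quasi-likelihood fit of edgeR 4.0.16 (R 4.3.3) with TMM factors, filterByExpr by tissue (37043 genes) and a mean per tissue, as in the methods of the study where these name edgeR, an adjusted p of 0.001 and a fold of 4. The test within edgeR is not named there. Standard errors were derived from the log2 fold change and the F statistic. FPKM is CPM per kilobase of merged exons. The libraries were taken as independent although tissues share fish, and p-values measure the spread between libraries within the 4 tissues. Totals of 20638203 to 30566429 counts put the floor of 3 counts at 0.0734 CPM in the ovary and 0.264 CPM in the liver on average. Intervals are exact at the 95% level and cover counting error only.

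Gene lists and cell type markers were matched by product name in the deposited annotation and described by counts and medians, with no set test. Named genes were, per side, the 8 highest by FPKM and the 6 largest folds (10 CPM or more) among genes called under both scalings without overlap, in each list the 3 highest by FPKM and up to 2 opposite calls, the genes named by the study, and genes of 6 product names with calls on both sides. Of 231 genes under this rule, those that show a group best are given, and opposite calls of lists with 5 or fewer are named outside it. Members, lists and this rule were chosen with earlier results of these data known. Alternatives were DESeq2 1.42.0 (size factors and Wald test), plain totals, totals without the 100 most abundant genes, other filters, a fit on 8 libraries, a test against a fold of 4, the replicate number as a block and leaving out each library. The fit was tested on simulated data. Tables and plots used Python 3.11.15, numpy 2.4.6, pandas 2.3.3 and matplotlib 3.10.9. 1 result is not reported here.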

Additional observations from a re-analysis of the deposited data

Results flagged for a closer look

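In 17 of 292 groups of 4 libraries examined for the genes and lists named above, 1 library stood apart from the other 3 by Dixon's criterion (5.82%, where chance gives about 1 in 20). Where the other 3 libraries had no count, any count in 1 library met the criterion, so the rate of 1 in 20 does not apply. This was so for LOC106592096 and LOC106570164 in the liver and for LOC106612555 in the ovary. The source of the flagged values was not tested.

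Liver replicate 1 stood apart for LOC106608315 (3.95 CPM, the others 0.334 to 0.634), LOC106608276 (3.76 CPM, the others 0.345 to 0.725), the inhibin beta A gene LOC106568683 (13.2 CPM, the others 3.59 to 4.98), zar1l (3.67 CPM, the others 2.41 to 2.63), esr1 (558 CPM, the others 461 to 473) and LOC106577426 (0 CPM, the others 0.0834 to 0.0906). Liver replicate 4 stood apart for the vitellogenin-like gene LOC106613448 (1158 CPM, the others 111 to 267), liver replicate 3 for LOC106587398 (1736 CPM, the others 1454 to 1483) and for LOC106592096 (0.181 CPM, the others 0), and liver replicate 2 for LOC106570164 (0.172 CPM, the others 0).

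In the ovary, replicate 2 stood apart for the ferritin gene LOC106600954 (114 CPM, the others 71.8 to 77.1), for LOC106592096 (0.475 CPM, the others 1.71 to 1.84) and for LOC106572609 (0.0712 CPM, the others 0.0231 to 0.0265). Replicate 3 stood apart for the cytochrome P450 gene LOC106601851 (25.7 CPM, the others 4.27 to 6.24), and replicate 4 for LOC106573520 (6.60 CPM, the others 7.85 to 8.04) and LOC106612555 (0.0245 CPM, the others 0). The leukocyte list took 0.0446% of the counts of ovary replicate 1 and 0.0657 to 0.0696% of the other ovaries.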

How the results depend on the processing

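The total of 15132 calls and the split of 8268 ovary and 6864 liver calls moved by less than 1.5 times under every alternative but plain totals and the test against a fold of 4. Plain totals gave 15546 ovary and 3610 liver calls (81.2% ovary) and shared 11878 calls with the main scaling, and the stricter test gave 9107 calls, 4828 for the ovary and 4279 for the liver (53.0% ovary). The ovary's share of calls, 54.6% with TMM factors, was 50.3% with DESeq2 size factors, 68.8% with totals that leave out the 100 most abundant genes, 51.0% with the 8 ovary and liver libraries alone and 50.1% with the DESeq2 Wald test. Leaving out each library in turn gave 14383 to 14648 calls, 7767 to 8096 for the ovary and 6437 to 6659 for the liver, a share of 54.0 to 55.4%. The split of calls between the tissues thus depends on the scaling. No called gene named here changed direction under any alternative run. The named genes called in the main fit lost their call for 10 under plain totals, for 12 in the test against a fold of 4, for 4 with totals that leave out the 100 most abundant genes and for 0 to 5 under each other alternative. Named genes that had no value under an alternative are not in these numbers. With a filter of at least 1 CPM in 4 libraries 99 named genes kept their call, against 104 with no low-count filter.

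Numbers in small lists depend on single libraries. Of the 2 fibroblast and smooth muscle genes higher in the ovary, 1 was left without ovary replicate 1, 3 or 4 or without liver replicate 2, 3 or 4, and 0 without liver replicate 1; of the 3 higher in the liver, 1 was left without any of the ovary libraries or liver replicates 1 and 2. Of the 2 leukocyte genes higher in the ovary, 1 was left without liver replicate 2 or 3, and exocrine pancreas genes higher in the liver were 2 without liver replicate 1.

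The replicate numbers are not tied to fish by the labels. Deviations of same-numbered ovary and liver libraries from their tissue means correlated at 0.0931 to 0.153 over genes, against -0.0693 to -0.00614 for the 12 other pairs, so every library correlated best with its own number, a hint from the data and not from the design. With the replicate number as a block, 14849 genes were called, 8073 for the ovary and 6776 for the liver (54.4% ovary), and the calls of LOC106592096, LOC106598344 and LOC106561792 were lost.

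Depth limits the low side. A count of 3 in a library is 0.0734 CPM in the ovary and 0.264 CPM in the liver on average; folds against genes with no count are given as lower bounds at this floor, and fitted folds of genes with few counts in a tissue, such as apom and LOC106572609 in the ovary, rest on those counts.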

Other observations

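Some gene families outside the lists were counted after their values had been seen, by product name. Zinc finger proteins, most of them DNA-binding proteins of unknown target, were higher in the ovary for 500 of 1115 tested genes (44.8%, against 22.3% of all tested genes) and in the liver for 93, with a median log2 difference of 1.86 with TMM factors, where all tested genes had 0.38; with plain totals 762 and 25 were called. Kinesins, motors that move along microtubules, were higher in the ovary for 53 of 117 and in the liver for 9 (median 1.73, and 80 and 3 with plain totals). Genes for cilia and flagella gave 23 and 3 of 50 (median 1.86, and 31 and 0 with plain totals), and F-box proteins, which choose targets for degradation, 33 and 7 of 106 (57 and 3 with plain totals). E2F factors, which drive the cell cycle, gave 8 and 2 of 16 (median 3.65, and 12 and 0 with plain totals), and chaperones of the HSP70 family 10 and 1 of 20 (median 2.80, and 12 and 0 with plain totals).

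Further families were picked the same way for their liver calls. Aquaporins, the water channels, were higher in the ovary for 0 of 19 tested genes and in the liver for 10 (median -4.04, and 1 and 8 with plain totals), with 3 higher in the ovary at an unadjusted edgeR p under 0.05 and 0 called there with DESeq2. Organic ion transporters of family SLC22 gave 5 ovary and 11 liver calls of 24 (median -2.73, and 8 and 9 with plain totals), and its share of ovary calls, 20.8%, was close to that of all genes. Chemokines gave 1 and 10 of 21 (median -2.69, and 1 and 5 with plain totals) and angiopoietin-related proteins 1 and 10 of 19 (median -3.14, and 3 and 7 with plain totals). The liver calls were 52.6% of aquaporins, 45.8% of SLC22 transporters, 47.6% of chemokines and 52.6% of angiopoietin-related proteins, against 18.5% of all genes. These families were chosen for how they moved, so their counts are descriptions.

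Long non-coding RNAs were called about as often as other genes on the ovary side, with 383 of 1769 tested (21.7%) higher in the ovary and 436 (24.6%) in the liver. Of 769 tested pseudogenes, 178 (23.1%) were higher in the ovary and 203 (26.4%) in the liver. Of all tested genes, 22.3% were higher in the ovary and 18.5% in the liver.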
